A study of Drosophila melanogaster with 9 samples.

Results

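The Jonah genes are a family of secreted serine proteases of the fruit fly, and 8 of them were followed across 3 diets: Jon25Bi, Jon25Biii, Jon44E, Jon65Aii, Jon65Aiii, Jon66Ci, Jon74E and Jon99Fi. They were found by the gene symbol that the array platform's annotation gives to each probe set, and each had 1 probe set of its own. They are 8 of the 8822 entries tested here, which are called genes below. Probe sets that name no gene or several could enter too, each as an entry of its own. Transcript levels came from Affymetrix arrays of head and thorax RNA from Canton-S females, a wild-type laboratory strain, at 10 days of age. Each array measured a pool of at least 75 flies. There were 3 arrays for flies on a restricted diet, 3 for flies on the normal diet plus resveratrol, a plant polyphenol, and 3 for flies on the normal diet alone. What the restricted diet lacked and how much resveratrol was given are not stated in the sources used here.

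Jonah proteases belong to the chymotrypsin and trypsin fold of serine proteases. They are made by the enterocytes of the midgut, the absorptive cells of its wall, and released into the gut lumen, where they cut dietary protein. The thorax of a fly holds the foregut and the front of the midgut, so head and thorax RNA includes some gut RNA. In pooled tissue of this kind, fewer midgut cells and less RNA per midgut cell cannot be told apart.

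Values are log2 probe set summaries, so a difference of 1 is a 2-fold change. They ran from 2.12, a floor shared by every array, to a highest value per array of 16.31 to 16.39. Differences are compressed near that top and widened near the floor, and log2 4 was taken as the lower limit of a readable signal. To be tested, a gene had to reach log2 4 on 3 or more of the 9 arrays, and it passed at a Benjamini-Hochberg adjusted p under 0.05 in limma. All 8 Jonah genes were tested, but Jon66Ci reached log2 4 on the 3 restricted-diet arrays alone, so a difference in its favour was built into its entry.

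Between 49.5% and 50.1% of the probe sets reached log2 4 on each array. Across probe sets, the correlation between 2 arrays was 0.994 to 0.998 within a diet and 0.985 to 0.998 between diets. The difference between 3' and 5' probe sets of the actin control, a measure of RNA integrity, was 1.06 to 1.39 on the restricted diet, 1.36 to 1.45 with resveratrol and 1.13 to 1.55 on the normal diet. For the eIF-4a control and 1 of the 2 GAPDH controls the restricted and normal diets overlapped as well. For the other GAPDH control they did not, with 4.25 to 4.36 on the restricted diet, 4.11 to 4.31 with resveratrol and 4.12 to 4.23 on the normal diet. The part of that shift in the Jonah values was not tested. The means of the neuron, photoreceptor, muscle and midgut wall markers were above log2 4 on all arrays. The mean of 6 germline genes, a tissue outside the head and thorax, lay at 7.05 to 8.50 on the restricted diet, 5.31 to 8.18 with resveratrol and 5.63 to 6.56 on the normal diet.

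Normal-diet arrays differed strongly among themselves in the Jonah genes. Normal-diet replicate 2 was the lowest of its diet for 7 of the 8 genes, against 33.9% of all genes tested. Normal-diet replicate 3 was the highest of its diet for 8 of 8, against 29.1% of all genes. With resveratrol, replicate 1 was the highest for 8 of 8, against 34.5% of all genes, and replicate 3 the lowest for 7 of 8, against 36.4%. Changes that single arrays move are given below with and without those arrays.

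**Figure D1:**
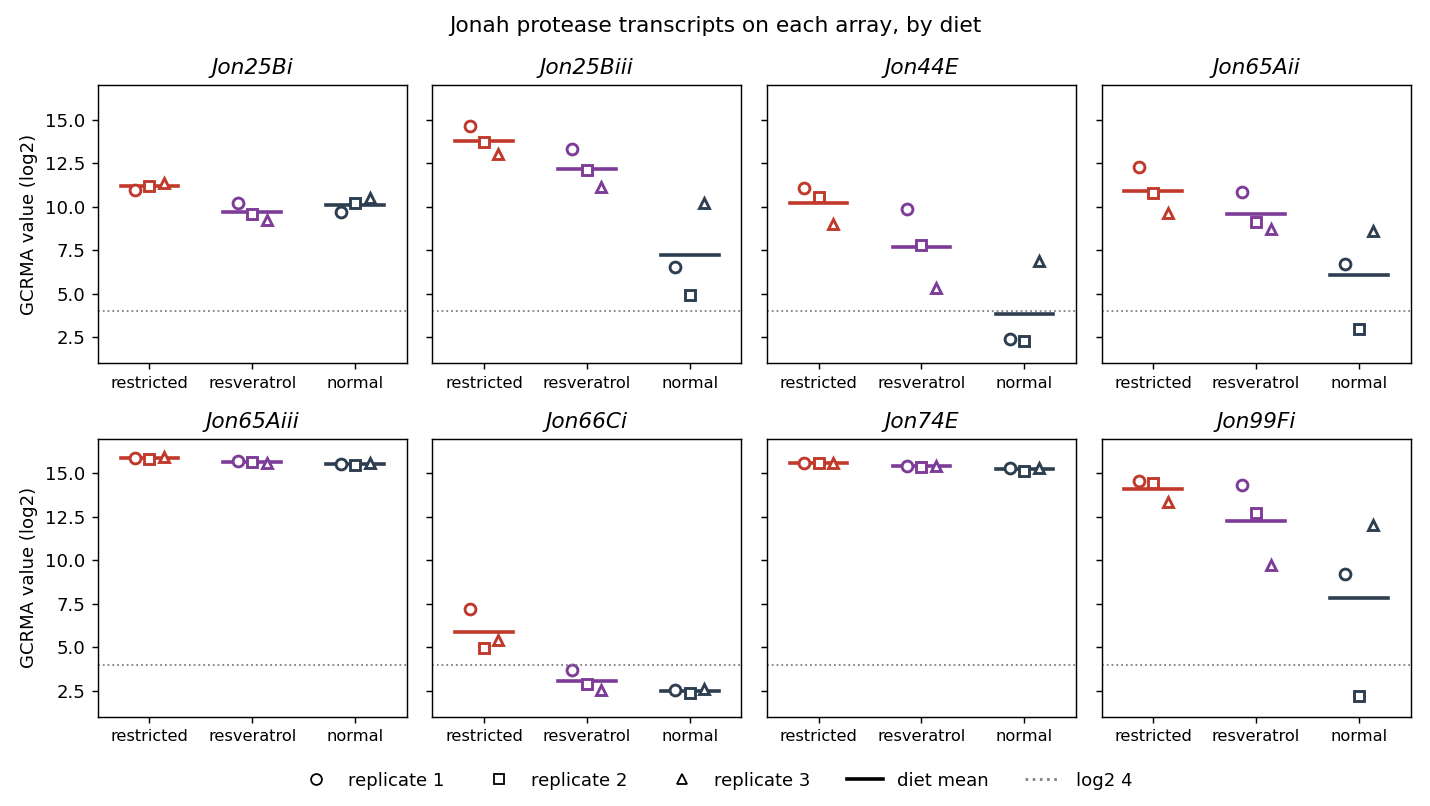
The log2 value of each of the 8 Jonah genes on every array, with the restricted diet on the left of each panel, resveratrol in the middle and the normal diet on the right. Symbols mark the replicate, bars the mean of 3 arrays and the dotted line log2 4. Jon65Aiii and Jon74E lie close to the top of the scale on all 9 arrays, while Jon99Fi on the normal diet runs from 2.17 to 12.03.

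The first comparison, of the restricted with the normal diet, addresses the transcripts that differ under a restricted diet. Every one of the 8 Jonah genes stood higher on all 3 restricted-diet arrays than on any normal-diet array. Changes ran from 0.33 for Jon65Aiii to 6.57 for Jon25Biii, and 7 of the 8 genes passed, all higher, where 5.27% of all genes tested rose. Without Jon66Ci, 6 of 7 passed. The median change was 4.09 over the 8 genes, or 4.81 over the 7 without Jon66Ci, against -0.05 over all genes. Non-overlap in the higher direction was seen for 7 of 7 Jonah genes without Jon66Ci, and for 16.4% of all genes.

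Jon25Biii and Jon25Bi lie in a cluster on chromosome arm 2L with Jon25Bii, another Jonah gene, between them. Jon25Biii (CG8871) stood at 14.65, 13.70 and 13.02 on restricted-diet replicates 1, 2 and 3, at 13.29, 12.11 and 11.11 with resveratrol, and at 6.53, 4.92 and 10.22 on the normal diet. The restricted and normal groups were separated by 2.80, and most of the spread lay within the normal diet. It rose by 6.57 ± 1.26 on the restricted diet (SE, 95% interval 3.65 to 9.48, limma adjusted p = 0.0166). The rise was 5.41 without normal-diet replicate 2 and 8.06 without normal-diet replicate 3. The call ended without normal-diet replicate 1 (6.22, limma adjusted p = 0.0591) and without restricted-diet replicate 1 (6.14, limma adjusted p = 0.0592).

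Jon25Bi (CG8867), the gene on the other side of the cluster, moved far less. Its values were 10.98, 11.21 and 11.36 on the restricted diet, 10.21, 9.56 and 9.21 with resveratrol, and 9.69, 10.18 and 10.47 on the normal diet. The 3 restricted-diet arrays were the highest of the 9, and the resveratrol and normal-diet values overlapped. It rose 2.10-fold on the restricted diet (1.07 ± 0.28, limma adjusted p = 0.0377). With 1 array left out the change stayed between 0.86 and 1.25, but the call held in 3 of 9 such fits. Those were the fits without normal-diet replicate 3, resveratrol replicate 1 and resveratrol replicate 3; in the other 6 the limma adjusted p was 0.0628 to 0.110.

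The change of Jon25Biii exceeded that of Jon25Bi by 5.50 on the restricted diet and by 5.40 with resveratrol, both against the normal diet. An exact two-sided permutation test over the 3 arrays of each diet gave p = 0.1 for each, the smallest it can give, and p = 0.15 after adjustment over the 6 such tests made. The pair was chosen after the values were seen. Between the restricted diet and resveratrol, the changes of the 2 genes differed by 0.10 (exact permutation p = 1).

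Jon44E (CG8579), on arm 2R and away from the other family members, stood close to the floor on 2 of the normal-diet arrays. It stood at 11.05, 10.56 and 9.02 on the restricted diet, at 9.85, 7.79 and 5.33 with resveratrol, and at 2.38, 2.28 and 6.87 on the normal diet. The restricted-diet arrays lay clear of the normal-diet ones, of which 2 were under log2 4. It rose by 6.37 ± 1.50 (limma adjusted p = 0.0278). Because of the floor the fold has no firm size. The change was 5.63, 5.59 and 7.88 as normal-diet replicates 1, 2 and 3 were left out, and 6.96 without restricted-diet replicate 3. The call held in 3 of 9 fits with 1 array left out, those without normal-diet replicate 3, resveratrol replicate 1 or resveratrol replicate 3, and the limma adjusted p reached 0.0889 in the others.

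On arm 3L, Jon65Aii and Jon65Aiii are next to each other, with Jon65Ai and Jon65Aiv on either side. Jon65Aii (CG6580) stood at 12.28, 10.79 and 9.64 on the restricted diet, at 10.83, 9.11 and 8.71 with resveratrol, and at 6.72, 2.96 and 8.60 on the normal diet. The lowest restricted-diet array was 1.05 above the highest normal-diet array. Its rise of 4.81 ± 1.39 lay just inside the threshold (limma adjusted p = 0.0492). Normal-diet replicate 2 was under log2 4, and with values under log2 4 set to 4 the rise was 4.47. Leaving out normal-diet replicate 2 gave 3.25, and leaving out normal-diet replicate 3 gave 6.07. Leaving out restricted-diet replicate 1 gave 4.12, and leaving out restricted-diet replicate 3 gave 5.44. The call held in 1 of the 9 fits with an array left out, the one without normal-diet replicate 3, and the highest limma adjusted p of the others was 0.144.

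Its neighbour Jon65Aiii (CG6483) read close to the top of the scale on every array. It stood at 15.85, 15.84 and 15.91 on the restricted diet, at 15.71, 15.66 and 15.58 with resveratrol, and at 15.55, 15.45 and 15.62 on the normal diet. The restricted-diet arrays were again the highest 3 of the 9, by a small margin close to the top of the scale. It rose 1.26-fold (0.33 ± 0.06, limma adjusted p = 0.0153), and the call ended without normal-diet replicate 1 (limma adjusted p = 0.0530). The change of Jon65Aii exceeded it by 4.48, with an exact permutation p = 0.1 and p = 0.15 after adjustment. Compression at the top of the scale limits what that difference can show.

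Jon74E (CG6298), also on 3L and with no family member beside it, also read close to the top of the scale. It stood at 15.62, 15.57 and 15.61 on the restricted diet, at 15.45, 15.39 and 15.40 with resveratrol, and at 15.32, 15.16 and 15.32 on the normal diet. The 3 diets did not overlap, although the whole range was 0.46. It rose 1.26-fold on the restricted diet (0.34 ± 0.06, limma adjusted p = 0.0136), and the call held in 9 of 9 fits with 1 array left out.

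Jon66Ci (CG7118), beside Jon66Cii on 3L, was readable on the restricted diet alone. It stood at 7.17, 4.95 and 5.43 on the restricted diet, at 3.68, 2.86 and 2.56 with resveratrol, and at 2.52, 2.34 and 2.59 on the normal diet. All resveratrol and normal-diet values lay under log2 4. Against log2 4 the restricted-diet mean of 5.85 was at least 3.60-fold higher than on the normal diet, or 2.28-fold without restricted-diet replicate 1. The limma adjusted p was 0.0126 for the values as deposited and 0.0365 with values under log2 4 set to 4. The filter required such a difference, so it is given as a description. Jon66Cii lay at the floor on all 9 arrays and was not tested.

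Jon99Fi (CG18030), on arm 3R beside Jon99Fii, had the widest spread of the 8 genes. It stood at 14.57, 14.46 and 13.32 on the restricted diet, at 14.33, 12.70 and 9.73 with resveratrol, and at 9.23, 2.17 and 12.03 on the normal diet. The lowest restricted-diet array was 1.29 above the highest normal-diet array, but the normal-diet values covered 9.86. The change was 6.31 ± 2.33 (95% interval 0.91 to 11.70) and did not pass (limma adjusted p = 0.0928). Normal-diet replicate 2 was practically at the floor, and with values under log2 4 set to 4 the change was 5.70. Leaving out normal-diet replicate 2 gave 3.49. Leaving out normal-diet replicate 3 gave 8.42, which passed (limma adjusted p = 0.0403). Jon99Fii has no probe set naming it here, and whether the Jon99Fi probe set also reads its transcripts was not tested.

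**Figure D2:**
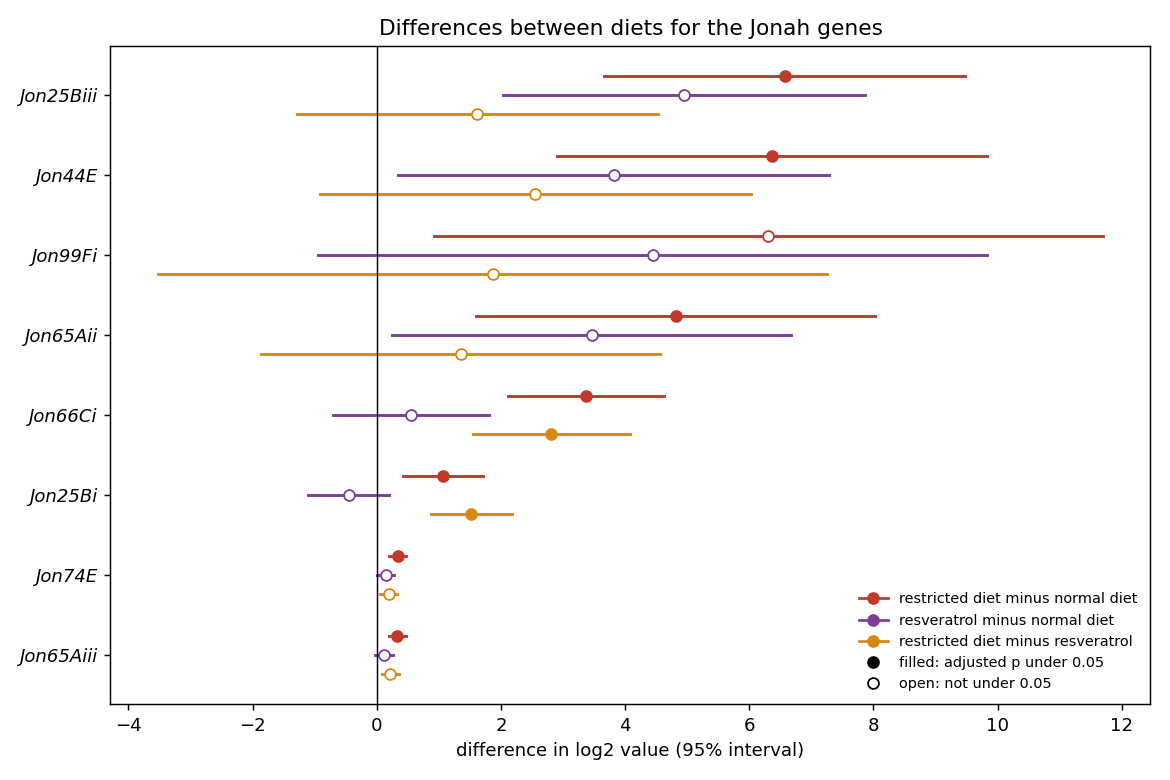
Differences in log2 value between diets for the 8 Jonah genes, with 95% intervals from limma, sorted by the change on the restricted diet. Filled points passed at an adjusted p under 0.05. On the restricted diet against the normal diet 7 genes passed, with resveratrol against the normal diet 0, and on the restricted diet against resveratrol 2.

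The count of 7 genes depended on single arrays, as did the count over all genes, which was 1604 with every array. As normal-diet replicates 1, 2 and 3 were left out in turn, the Jonah count was 2, 4 and 8. Over all genes it was 332, 502 and 1555. The Jonah count was 3 when restricted-diet replicate 1 was left out and 4 when replicate 2 or 3 of that diet was. Over all genes those fits gave 517, 1356 and 725. Leaving out resveratrol replicate 2, which enters only the shared spread, gave 4, and leaving out resveratrol replicate 1 or 3 gave 6. Over all genes, leaving out resveratrol replicates 1, 2 and 3 gave 1557, 1039 and 1671. The change was positive for each of the 8 genes in all of these fits. With no filter on low values 3 of the 8 passed, and 598 of the 17104 entries then tested. A test of each gene on its own variance, without moderation, called 0 of all genes. Its 0 of 8 is thus not particular to the Jonah genes.

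The next comparison, of flies given resveratrol with flies on the normal diet alone, addresses the effect of the compound. None of the 8 Jonah genes passed (0 of 8 in limma), where 0.0453% of all genes rose and 0.181% fell. At an unadjusted p under 0.05 there were 4 of 8, against 9.74% of all genes. The test without moderation of the variances called 0 of all genes, so its 0 of 8 carries no weight. Estimates were positive for 7 of the 8 genes, with a median of 2.01, against 47.7% and a median of -0.007 over all genes. Without Jon66Ci, whose values here were all under log2 4, 6 of 7 were positive, with a median of 3.46. For 3 genes, Jon25Biii, Jon65Aii and Jon74E, the 3 resveratrol arrays lay above all normal-diet arrays, where 6.35% of all genes did so.

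Jon25Biii had the largest estimate, 4.95 ± 1.26 (95% interval 2.03 to 7.86, limma adjusted p = 0.221), and 3.79 without normal-diet replicate 2 or 6.44 without normal-diet replicate 3. For Jon99Fi the estimate was 4.44 with an interval from -0.95 to 9.84, and leaving out those same arrays gave 1.62 and 6.55. Jon65Aii had 3.46 (0.25 to 6.68), or 1.90 and 4.71 with them left out. Jon44E had 3.82 (0.35 to 7.29), or 3.04 and 5.33 with them left out and 2.72 without resveratrol replicate 1. The intervals of Jon99Fi, Jon65Aii and Jon44E admit both small and very large changes, while that of Jon25Biii lies above 2.03. The data do not show that these genes are alike on the 2 diets. Jon74E had 0.15 (0.01 to 0.28), Jon65Aiii 0.11 (-0.03 to 0.25), and Jon66Ci 0.55 between values that were all under log2 4.

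Jon25Bi was the exception in direction. Its mean was lower with resveratrol, at 9.66 ± 0.50, than on the normal diet, at 10.11 ± 0.40 (SD, n = 3 arrays each), a difference of -0.45 that did not pass (interval -1.10 to 0.20, limma adjusted p = 0.681). For 6 of the 7 genes without Jon66Ci the resveratrol mean lay between those of the restricted and the normal diet. The means of Jon66Ci had the same order. All its resveratrol and normal-diet values lay under the lower limit of a readable signal, so its order between those diets cannot be read. Both treatments were set against the same 3 normal-diet arrays, so their changes are not independent.

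The last comparison put the restricted diet directly against resveratrol. All 8 Jonah genes had higher means on the restricted diet, and 2 passed, Jon25Bi and Jon66Ci, where 0.453% of all genes rose. Without Jon66Ci, whose entry needed its restricted-diet arrays to be high, 1 of 7 passed. Jon25Bi was 2.87-fold higher (1.52 ± 0.28, 95% interval 0.87 to 2.17, limma adjusted p = 0.0450), with the lowest restricted-diet array 0.77 above the highest resveratrol array. Its call held in 3 of 9 fits with 1 array left out, and the estimates were 1.30 to 1.79. The call ended without normal-diet replicate 1, any of the 3 restricted-diet arrays, or resveratrol replicate 2 or 3. Jon66Ci was at least 3.60-fold higher against log2 4. Its limma adjusted p of 0.0467 belongs to the values as deposited, including those under log2 4. That call held in 0 of those 9 fits.

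Jon65Aiii and Jon74E did not overlap between these groups either, with differences of 0.22 (limma adjusted p = 0.0882) and 0.19 (limma adjusted p = 0.105). In all, 4 of 8 genes, or 3 of 7 without Jon66Ci, had every restricted-diet array above every resveratrol array, against 9.83% of all genes. The genes with the largest changes over the normal diet had the widest intervals here. Jon25Biii differed by 1.62 (interval -1.29 to 4.53), Jon44E by 2.55 (-0.92 to 6.02), Jon65Aii by 1.35 (-1.86 to 4.56) and Jon99Fi by 1.86 (-3.53 to 7.26). Leaving out resveratrol replicate 1 gave 2.18, 3.65, 1.99 and 2.90 for these 4 genes, and leaving out resveratrol replicate 3 gave 1.09, 1.39, 0.93 and 0.60. Without restricted-diet replicate 1 the value for Jon65Aii was 0.66, and without restricted-diet replicate 3 it was 1.98. Jon44E had 3.15 without restricted-diet replicate 3. Their resveratrol values overlapped the restricted-diet values, with resveratrol replicate 1 reaching into the restricted range for each. Over all genes this comparison was sensitive to scaling, with 40 higher and 184 lower as deposited, 20 and 17 after repeated quantile normalization, and 11 and 4 after median centring.

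The 8 genes differed in their spread within a diet. Jon25Biii, Jon44E, Jon65Aii and Jon99Fi had a within-diet SD of 1.76 to 3.25, where 1.93% of all genes tested had an SD of 1 or more and the median gene had 0.12. Jon65Aiii and Jon74E had 0.06 each, at the top of the scale. Jon25Bi had 0.39 and Jon66Ci 0.76. The value for Jon66Ci includes its resveratrol and normal-diet arrays, all under log2 4. On the restricted diet alone its SD was 1.17, against 0.82 for Jon25Biii, 1.06 for Jon44E, 1.32 for Jon65Aii and 0.69 for Jon99Fi.

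Deviations of single arrays from their diet means ran together across the genes. Over the 28 pairs of the 8 genes, all 28 correlations of these deviations were positive, with a median r of 0.70 and a range of 0.12 to 0.93. Over the values of the 9 arrays the median r was 0.85, from 0.40 between Jon25Bi and Jon65Aii to 0.97 between Jon65Aiii and Jon74E. These correlations are descriptions, since the points share their diets, RNA pools and normalization. Among the family, Jon25Bi had its highest r, 0.97, with its neighbour Jon25Bii, against 0.46 with Jon25Biii in the same cluster.

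**Figure D3:**
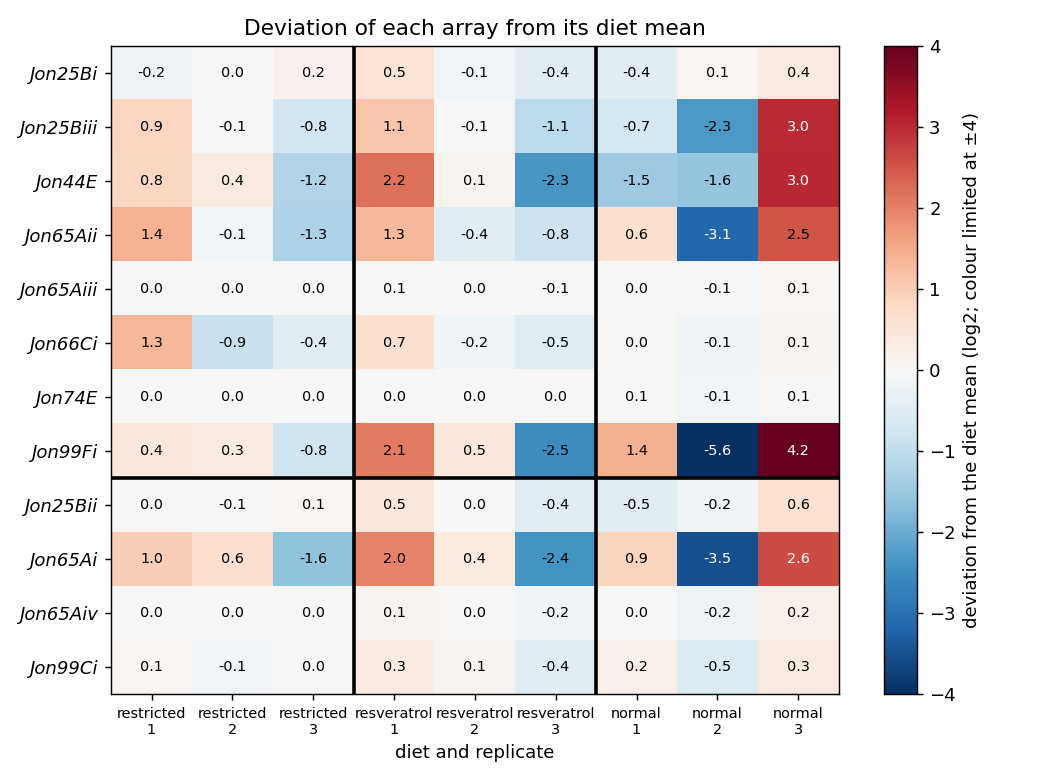
Deviation of each array from its own diet mean, in log2 units, for the 8 Jonah genes (above the line) and the 4 other Jonah genes tested (below it). Columns are arrays, with the restricted diet on the left, resveratrol in the middle and the normal diet on the right. Normal-diet replicate 3 is above its diet mean for all 12 genes, and resveratrol replicate 1 likewise.

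Of 16 Jonah genes in the fly gene table, 13 had a probe set of their own. Beside the 8 genes above, Jon25Bii, Jon65Ai, Jon65Aiv and Jon99Ci were tested. On the restricted diet against the normal diet 2 of these 4 rose (5.27% of all genes did), Jon25Bii by 1.21 ± 0.30 (limma adjusted p = 0.0308) and Jon65Aiv by 0.45 ± 0.12 (limma adjusted p = 0.0351). Jon65Ai had a change of 4.16 (limma adjusted p = 0.117) and values of 6.89, 2.49 and 8.62 on the normal diet, much like Jon65Aii beside it. Jon99Ci had 0.56 (limma adjusted p = 0.157). With resveratrol against the normal diet, 0 of the 4 passed in limma and 0 had an unadjusted p under 0.05, with estimates of -0.17 for Jon25Bii and -0.12 for Jon99Ci, and positive ones for Jon65Ai and Jon65Aiv.

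Other digestive genes were read in the same arrays from lists drawn up with earlier results of these data known. Of 10 trypsins, the other main family of gut serine proteases, 3 rose on the restricted diet against the normal diet and 7 did not pass, with a median change of 2.04, where 5.27% of all genes rose. Those that rose were epsilonTry by 0.82 (limma adjusted p = 0.0332), etaTry by 1.91 (limma adjusted p = 0.0364) and Ser6, whose normal-diet mean lay under log2 4, at 5.78 against 3.12. Of 13 other digestive enzymes and gut lipid carriers, 7 rose and 6 did not pass (median 1.93). Those with the smallest p were the sterol-binding protein gene Npc2e, the maltase gene Mal-A4, the predicted carboxypeptidase gene CG17633 and CG8560, which rose by 4.79, 3.33, 1.32 and 4.78. With resveratrol against the normal diet, and on the restricted diet against resveratrol, 0 of these 23 genes passed in limma. At an unadjusted p under 0.05 there were 4 trypsins and 2 other enzymes with resveratrol, where 9.74% of all genes did so. On the restricted diet against resveratrol there were 0 trypsins and 7 other enzymes, against 25.2% of all genes. The medians with resveratrol were 1.57 for trypsins and 0.84 for the other enzymes.

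The array that was low for the Jonah genes was low for these lists too. The mean of the 8 Jonah genes was 11.67 to 12.77 on the restricted diet, 9.70 to 11.67 with resveratrol and 6.93 to 10.22 on the normal diet, with normal-diet replicate 2 the lowest. The trypsin mean was 9.55 to 10.63 on the restricted diet, 9.29 to 9.58 with resveratrol and 6.59 to 8.95 on the normal diet. The mean of the other digestive enzymes was 9.63 to 10.54 on the restricted diet, 8.30 to 9.22 with resveratrol and 6.28 to 8.77 on the normal diet. In both lists the lowest array of the 9 was normal-diet replicate 2.

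Markers of the midgut wall were read beside the Jonah genes. Of 8 tested markers, 3 rose on the restricted diet against the normal diet, where 5.27% of all genes rose. These were mesh, Tsp2A and Ssk, which encode proteins of the smooth septate junctions between gut cells and rose by 0.69, 0.79 and 0.73. The changes of the 8 markers ran from 0.34 to 2.46 with a median of 0.77, and those of Jon25Bi, Jon65Aiii and Jon74E were within or just under that range. Jon65Aiii and Jon74E read close to the top of the scale, where differences are compressed. Those of Jon25Biii, Jon44E, Jon65Aii and Jon99Fi were above the range, at 6.57, 6.37, 4.81 and 6.31, the last of which did not pass. Jon66Ci, under log2 4 on the normal diet, has no firm change to place. The sizes for Jon44E, Jon65Aii and Jon99Fi are not firm either, as each had normal-diet values under log2 4. With values under log2 4 set to 4 they were 5.25, 4.47 and 5.70. The marker with the change of 2.46, Vha100-4, had a normal-diet mean of 3.15, so the top of the marker range is not firm. The difference between the 2 lists was not tested, and GATAe and mex1 overlapped between the diets. The mean of the 8 markers was 8.11 to 8.78 on the restricted diet, 7.39 to 7.96 with resveratrol and 7.15 to 7.83 on the normal diet. Within each diet, this mean ranked the 3 arrays in the same order as the mean of the 8 Jonah genes did. On normal-diet replicates 1, 2 and 3 the marker mean was 7.53, 7.15 and 7.83, and the Jonah mean 8.49, 6.93 and 10.22. Both means reached their minimum over all arrays in normal-diet replicate 2. GATAe, a transcription factor of the midgut, did not pass on the restricted diet (0.34, limma adjusted p = 0.201), and against resveratrol it was higher by 1.18 (limma adjusted p = 0.0390). The part of the amount of gut tissue in these pools in the Jonah values was not tested.

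Markers of other tissues moved as well. Of 6 neuron markers 5 fell on the restricted diet against the normal diet, of 8 photoreceptor markers 8 fell, and of 8 muscle markers 4 fell, with medians of -0.44, -0.47 and -0.38; of all genes tested 12.9% fell. Of 6 fat body markers 4 rose (median 0.51, where 5.27% of all genes rose). Of 4 genes listed as enteroendocrine markers, Dh31, Mip, AstC and NPF, the first 2 fell (median -0.24). Which cells of the head and thorax gave the signal of these 4 genes was not tested. The germline mean did not overlap between the restricted and the normal diet, with 0 of 6 genes passing in limma and 3 at an unadjusted p under 0.05, against 37.7% of all genes. Resveratrol replicate 3, the lowest of its diet for 7 Jonah genes, had the lowest germline mean of the 9 arrays. The part of these shifts in the Jonah values was not tested.

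**Figure D4:**
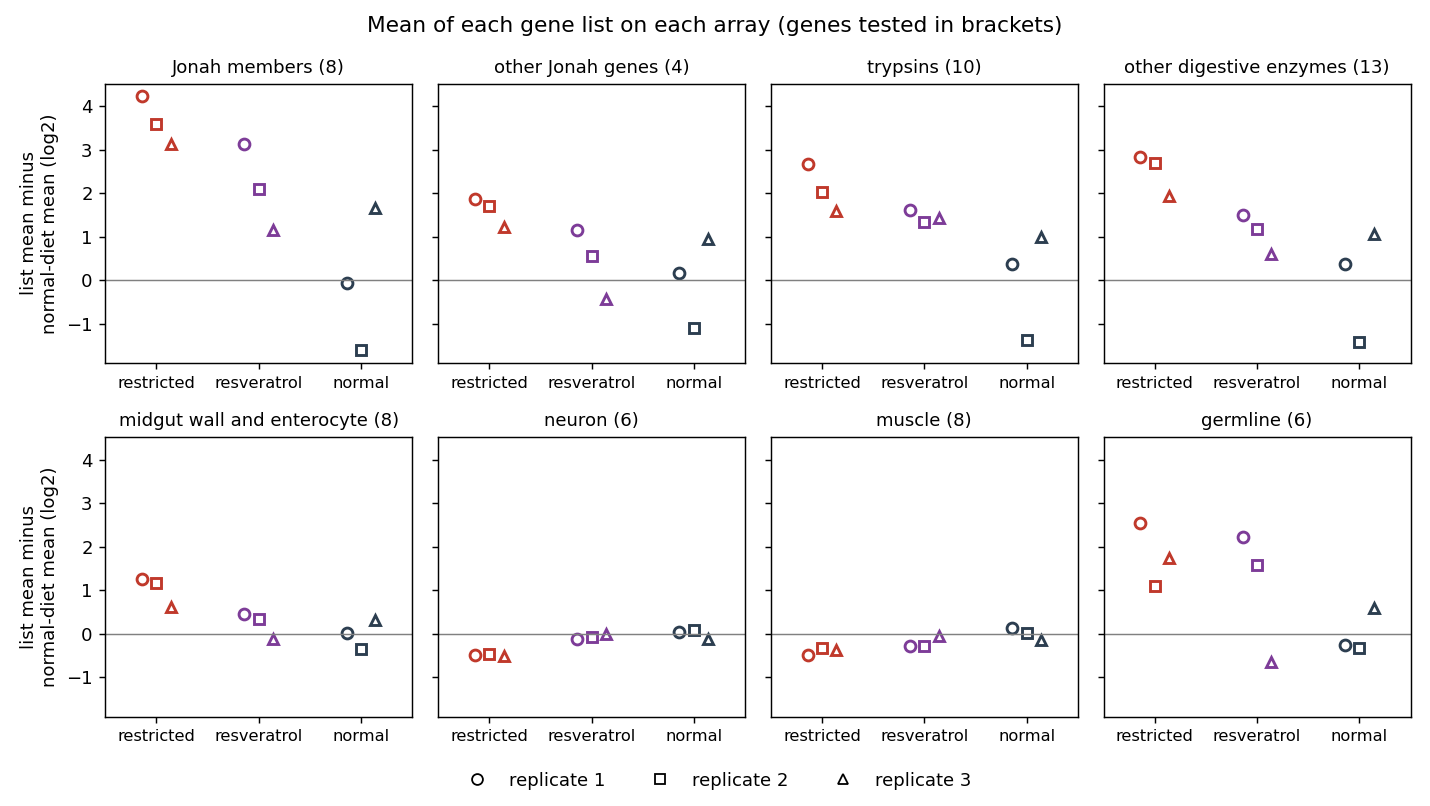
Mean log2 value of each gene list on each array, less the list's mean over the normal-diet arrays, with the number of genes tested in brackets. Symbols mark the replicate. The Jonah and other digestive lists spread over several log2 units with normal-diet replicate 2 lowest. The midgut wall markers spread over a smaller range, with that array lowest as well. The neuron and muscle markers are lower on the restricted diet.

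Genes outside the family were ranked by Pearson's r with each Jonah gene over the 9 arrays, which is a description of pattern only. For the 3 closest genes of each of the 8, r was 0.952 to 0.995. Jon65Aii was closest to CG10472, a predicted serine protease, at 0.992, and Jon25Biii to the alkaline phosphatase gene Alp5 at 0.988. Jon99Fi was closest to CG31233 at 0.987, with another alkaline phosphatase gene, Alp10, next at 0.983. Jon44E was closest to Sec61gamma, a subunit of the channel that takes secreted proteins into the endoplasmic reticulum, at 0.989. Jon65Aiii was closest to CG4752 at 0.995, Jon66Ci to CG9344 at 0.982 and Jon74E to CG9577 at 0.979.

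Jon25Bi had the lowest r of the 8 with its closest gene, the mitochondrial ribosomal protein gene mRpL4, at 0.959. The replication factor gene RfC38 was next at 0.956. Genes outside the digestive lists were close to other Jonah genes too, with Pex14 at 0.979 and CSN5 at 0.976 for Jon65Aiii, and Fancl at 0.977 for Jon74E. The mean of the 8 Jonah genes was closest to CG3868 (0.990), CG16749 (0.990), CG31198 (0.986), CG2930 (0.984) and Agpat4 (0.982). CG16749 showed the same spread on the normal diet, with 11.19, 10.42 and 10.10 on the restricted diet, 10.11, 9.46 and 8.92 with resveratrol, and 7.94, 6.13 and 8.78 on the normal diet.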

How the data were processed

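Total RNA from pooled females was labelled by the Affymetrix single-cycle protocol with 5 µg of input, per the labels' protocols. The authors deposited log2 summaries per probe set, made with GCRMA per the submitters' processing notes. Neither its version nor which arrays were normalized together is stated there. GCRMA subtracts a sequence-based background, so values near the floor are less certain. The number of arrays limits the precision.

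Of 18952 probe sets, 183 controls were left out. Of the others, 13647 named 1 gene, 402 several and 4720 none, and 13544 of the 13647 matched RefSeq's fly gene table (Release 6 assembly) by identifier. A probe set entered where at least 3 arrays reached log2 4 (9401 did), and the one with the highest mean stood for a gene, which left 8822. Probe sets that named no gene or several were not left out, and each counted as an entry of its own. Genes are named from the platform annotation, updated by that table; no coordinates are given. One model with a mean per diet was fitted to all 9 arrays in limma 3.58.1 (R 4.3.3) with 6 residual and 1.81 prior degrees of freedom, and p-values were two-sided and adjusted within each comparison over all 8822. Differences in change between paired genes of the same cluster were tested by exact permutation. The procedure was tested on simulated data.

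The genes followed and all lists were chosen with earlier results of these data known. All 8 Jonah genes were named, list members that passed (up to 4 with the smallest p), and the genes of most like pattern (3 per Jonah gene, 5 for their mean), of which the closest are described; others named were chosen after their values were seen. Alternatives covered scaling, filter, floor, probe set choice, variance model, test, arrays in the fit, replicate number as a block, threshold and leaving out each array.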

Additional observations from a re-analysis of the deposited data

How the results depend on the processing

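The 8 Jonah changes kept their direction in all 3 comparisons under every alternative run, except for Jon66Ci: it was not tested with the filter at log2 5, and with values under log2 4 set to 4 it had no change with resveratrol against the normal diet. On the restricted diet against the normal diet, the count of 7 Jonah genes was 3 with no filter on low values, 4 with the replicate number as a block, 0 at a threshold of 0.01 and 0 in the test without moderation; with 1 array left out it was 2 to 8. On the restricted diet against resveratrol, the count of 2 was 1 with the filter at log2 5 or with values under log2 4 set to 4, and 0 with median centring, repeated quantile normalization, no filter, only the 2 groups compared, the replicate number as a block, the threshold of 0.01 or no moderation; with 1 array left out it was 0 to 1. With resveratrol against the normal diet it was 0 throughout. Over all genes, the 1604 calls on the restricted diet against the normal diet became 598 with no filter, 931 with the block, 127 at 0.01 and 0 without moderation, and 332 to 1671 with 1 array left out. The 224 calls on the restricted diet against resveratrol became 15 with median centring, 37 with quantile normalization, 8 with no filter, 1 with only the 2 groups, 339 with trend and robust variances, and 0 with the block, at 0.01 or without moderation, and 0 to 290 with 1 array left out. The 20 calls with resveratrol against the normal diet became 10 with no filter, 4 with only the 2 groups, 47 with trend and robust variances, 1 with the block, 3 at 0.01 and 0 without moderation, and 2 to 9 with 1 array left out. With no filter, 17104 features were tested in place of 8822; the causes of the other shifts were not tested. No pairing by replicate number was seen: deviations of same-numbered arrays correlated at -0.33 to 0.40, and those of other numbers at -0.37 to 0.41. Deviations from a mean of 3 arrays depend on each other, so these correlations cannot exclude pairing. Values near the floor (Jon44E, Jon65Aii, Jon66Ci and Jon99Fi on the normal diet) and the top of the scale (Jon65Aiii, Jon74E) limit the sizes given.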
